A study of Mus musculus with 6 samples.

Results

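The eicosanoid synthesis enzymes described here are 10 genes whose proteins turn membrane arachidonic acid into prostaglandins, leukotrienes and related lipid mediators. Genes were chosen by symbol, with no measured value in the rule, but with earlier results of these data known. All 10 are among the 25124 genes of the deposited table: Pla2g4a, Ptgs1, Ptgs2, Ptges, Hpgds, Alox5, Alox5ap, Ltc4s, Lta4h and Alox15. They were measured by RNA sequencing of poly(A) RNA in RAW264.7 cells, a mouse macrophage-like line. Every library came from a control line that had received a plasmid for Cas9 with no guide sequence, made for comparison with a knockout of E4BP4. The cells were grown with 25 mM glucose and 10% serum, and had been passaged fewer than 15 times. M0 cells (3 libraries) received no IL-4, and M2 cells (3 libraries) received 10 ng/ml of IL-4, the cytokine that drives alternative activation. No source used here gives the length of the IL-4 treatment or says whether the control line is 1 clone.

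Eicosanoid synthesis starts when cytosolic phospholipase A2, the product of Pla2g4a, frees arachidonic acid from membrane lipids. The cyclooxygenases encoded by Ptgs1 (the constitutive form) and Ptgs2 (the form induced by inflammatory signals) turn it into prostaglandin H2, from which Ptges makes prostaglandin E2 and Hpgds makes prostaglandin D2. In the other arm, 5-lipoxygenase (Alox5), which is served by its membrane partner FLAP (Alox5ap), makes leukotriene A4, which Lta4h turns into leukotriene B4 and Ltc4s joins to glutathione to give leukotriene C4. Alox15 encodes a 12/15-lipoxygenase, known as a gene that IL-4 induces in primary macrophages. Macrophages are known producers of both classes of mediator.

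With IL-4 the transcripts of the leukotriene arm went down and the main cyclooxygenase transcript went up. All 4 genes of the leukotriene arm fell (limma on log2(TPM + 1), adjusted p under 0.05): Alox5 was 2.51-fold lower in M2, Ltc4s 1.55-fold, Alox5ap 1.28-fold and Lta4h 1.16-fold, by ratios of mean TPM, a level scaled for transcript length and library size. Of the prostaglandin arm, Ptgs1 rose 1.80-fold, Hpgds and Ptgs2 did not pass, and Ptges, which was 2.09-fold lower, lay below the filter on low values. Pla2g4a, upstream of both arms, rose 1.13-fold. The calls of Ptgs1, Alox5 and Alox5ap held under all 13 alternatives run, while those of Pla2g4a, Ltc4s and Lta4h were lost under 4 to 6 of them. Of the 10 genes 8 reached 1 TPM in 3 or more of the 6 libraries and were tested, and of these 2 rose and 4 fell. Over all 11202 genes tested, 43.7% were called, 20.1% with M2 higher and 23.7% with M2 lower, so a call as such was common in this comparison. The libraries of the groups did not overlap for 7 of the 8, 3 with M2 above (25.1% of all genes tested) and 4 with M2 below (30.8%). The median log2 fold change was -0.16 over the 8 genes and -0.03 over all genes tested. It was -0.44 over the 4 of the leukotriene arm and 0.18 over the 3 tested of the prostaglandin arm. The latter leaves out Ptges, at -0.35 on the same scale. Whether the arms differ in their change was not tested, since the genes were chosen by hand for the pathway, with earlier results of these data known.

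**Figure D1:**
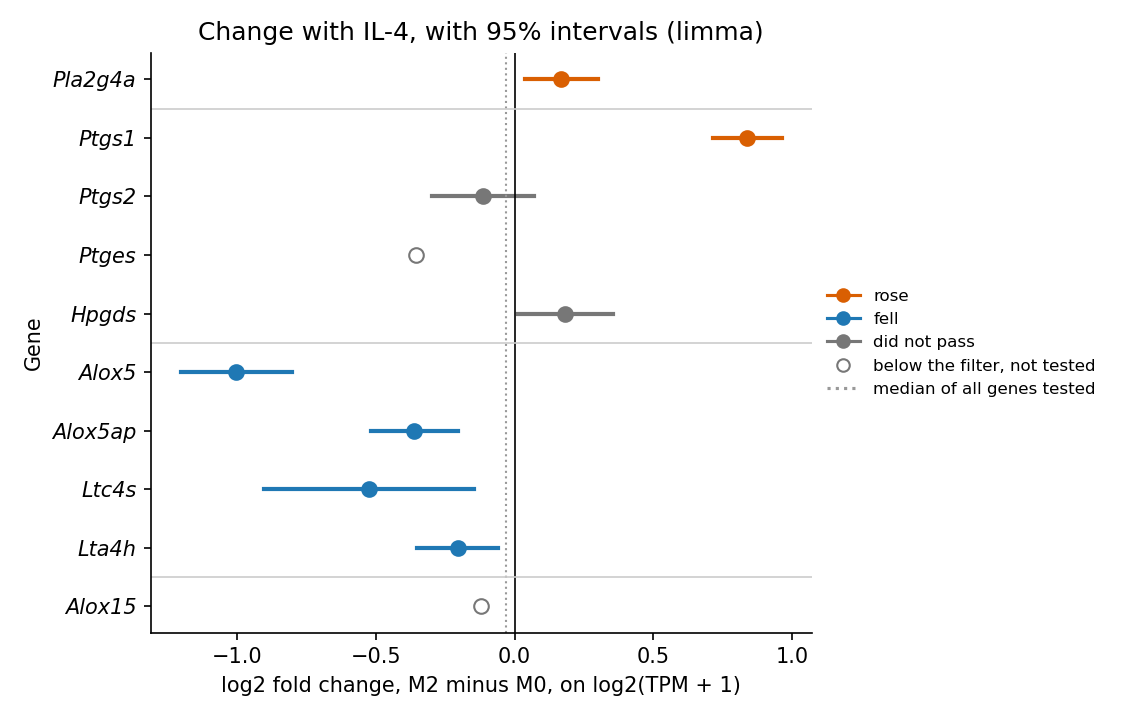
Log2 fold changes, M2 minus M0 on log2(TPM + 1), of the 10 genes with 95% intervals from limma (3 libraries per group). All 4 leukotriene genes lie left of 0, from -1.002 for Alox5 to -0.21 for Lta4h, and Ptgs1 stands at 0.84; open circles are genes below the filter, and the dotted line is the median of all genes tested.

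Each library held between 15615639 and 19511192 reads, as recovered from its TPM values. M2 replicate 3 stood apart from its group: chi-square per degree of freedom over genes was 21.3 and 21.2 against M2 replicates 1 and 2, and 2.27 to 6.14 between the other libraries of a group. Without it, the 6 genes called still passed, with log2 fold changes of 0.21 for Pla2g4a, 0.87 for Ptgs1, -0.99 for Alox5, -0.41 for Alox5ap, -0.67 for Ltc4s and -0.16 for Lta4h, and Hpgds passed as well. The summed levels of the arms were then 1.70 and 0.758 times those in M0. The labels do not say whether replicates were grown separately, so the spread behind each p-value may be only technical. All 3 M0 libraries, and no M2 library, carry a re-analysis note in their labels, and any batch behind it cannot be told apart from IL-4. Of 8 macrophage markers all passed the filter, with sums of 2230 to 2457 TPM per M0 library and 2081 to 2180 TPM per M2 library. Of them 3 rose and 1 fell. Most of each sum was Lyz2 (907 to 1159 TPM over all libraries) and Cd68 (447 to 617 TPM), while Adgre1 was at 2.15 to 6.27 TPM. Mast cells, basophils and eosinophils are known for leukotriene C4 and prostaglandin D2 synthesis. All 8 mast cell and basophil markers (sums of at most 0.323 TPM) and all 4 eosinophil markers (at most 0.292 TPM) stayed under 1 TPM in every library, with Ms4a2, Tpsb2 and Epx at 0. Among platelet markers Gp9 was at 0, Itga2b and Ppbp were under 1 TPM and Gp1bb was at 1.27 to 1.999 TPM in M0 and 0.717 to 1.15 TPM in M2, while Pf4, which macrophages also express, held nearly all of the list's 332 to 440.2 TPM. Of 5 neutrophil markers 4 stayed under 1 TPM, and the list's sum was 4.51 to 5.85 TPM per M0 library and 4.12 to 5.75 TPM per M2 library, nearly all of it S100a8.

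Levels of the 10 genes span more than 2 orders of magnitude. In M0 the order by mean TPM was Alox5ap, Pla2g4a, Ptgs1, Lta4h, Hpgds, Ptgs2, Alox5, Ltc4s, Ptges and Alox15. Within it, Hpgds and Ptgs2, Alox5 and Ltc4s, and Ptges and Alox15 overlapped between libraries. In M2 Ptgs1 came first, followed by Pla2g4a and Alox5ap, whose libraries overlapped, and Ltc4s came before Alox5 and Alox15 before Ptges. So the most abundant transcript of the set was that of FLAP without IL-4 and that of cyclooxygenase 1 with it. Alox5ap in M0 was above 98.0% of all listed genes in mean TPM, and Ptgs1 in M2 above 98.1%.

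**Figure D2:**
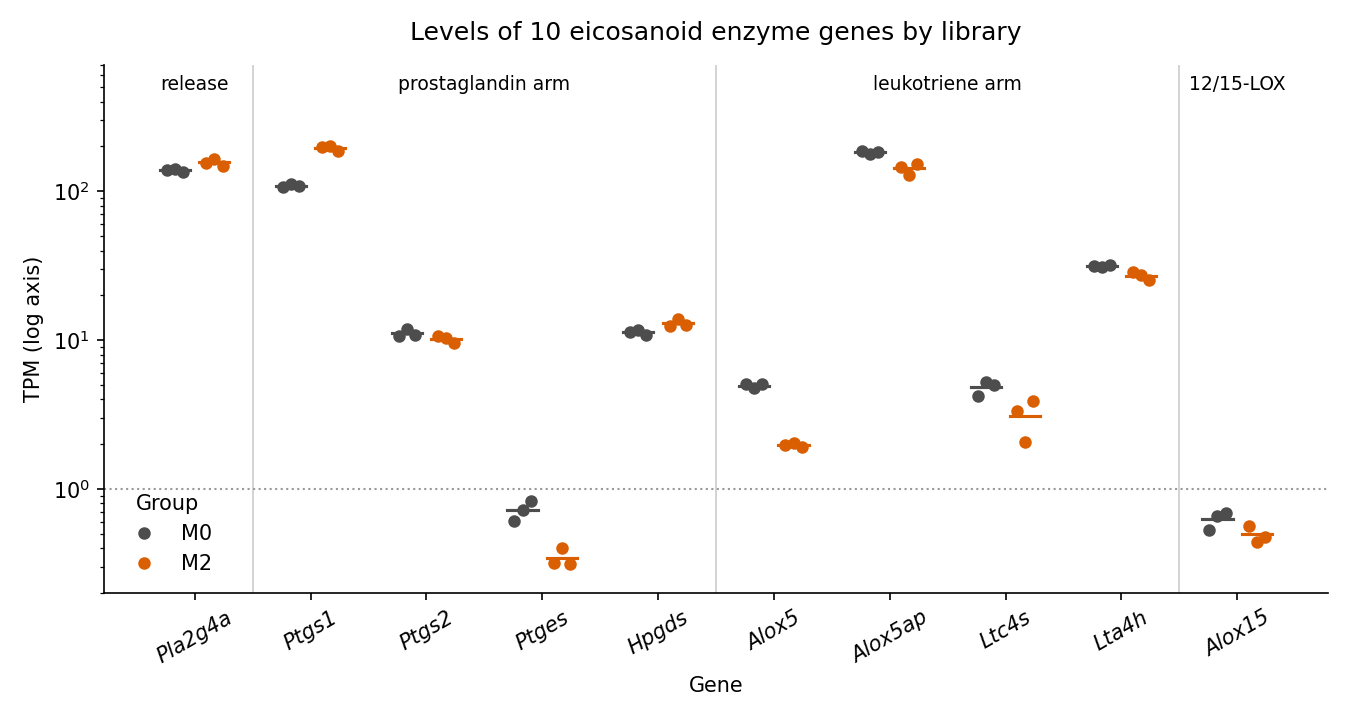
TPM of each gene in each library on a log axis, M0 in grey and M2 in orange, with a bar at each group mean and a dotted line at 1 TPM. Ptgs1 moves from about 109 to 196 TPM, and Alox5 from 4.96 to 1.98 TPM, with no overlap between groups.

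Promoter sequences are shown for the called gene with the largest rise in log2 fold change, Ptgs1, and the one with the largest fall, Alox5. That of Ptges, a gene not tested, was added after the search, as the 1 window among these genes with the letters bound by STAT6. The plan had been to use promoters of called genes only. Each is the 250 bases before the start site in RefSeq on GRCm38.p6, printed 5′ to 3′ on the gene's own strand. They lie at chr2:36230176-36230425 (Ptgs1, plus strand), chr6:116461179-116461428 (Alox5, minus strand) and chr2:30903298-30903547 (Ptges, minus strand). Capitals mark a match to any motif searched.
Ptgs1: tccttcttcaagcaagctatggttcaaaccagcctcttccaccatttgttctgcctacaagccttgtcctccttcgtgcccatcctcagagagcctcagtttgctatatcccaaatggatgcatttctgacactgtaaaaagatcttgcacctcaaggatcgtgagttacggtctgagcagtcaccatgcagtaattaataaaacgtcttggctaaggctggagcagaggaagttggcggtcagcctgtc
Alox5: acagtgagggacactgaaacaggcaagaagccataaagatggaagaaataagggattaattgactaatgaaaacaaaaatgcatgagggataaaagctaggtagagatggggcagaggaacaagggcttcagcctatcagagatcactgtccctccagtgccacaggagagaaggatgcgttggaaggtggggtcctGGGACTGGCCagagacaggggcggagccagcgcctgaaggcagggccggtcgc
Ptges: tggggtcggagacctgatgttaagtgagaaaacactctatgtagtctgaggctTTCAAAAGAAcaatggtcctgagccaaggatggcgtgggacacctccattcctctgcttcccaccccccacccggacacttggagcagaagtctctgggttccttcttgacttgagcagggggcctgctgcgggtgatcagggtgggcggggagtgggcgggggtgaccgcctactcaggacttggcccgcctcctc
Each window ends just before the first base of the transcript model used in the deposited table. The motifs searched, on both strands, were TTC and GAA with any 4 bases between them (the spacing that STAT6, the factor activated by IL-4, is known to bind), TTCNNNGAA (other STAT factors), TTANGTAA (NFIL3, which is E4BP4), TATAAA, and GGGA and CC with any 4 bases between them (NF-kappaB). The Ptgs1 window held no match to any of these letters. The Alox5 window held 1 match to the NF-kappaB letters, 53 to 44 bases before the start, a motif present in 17.6% of all 32851 promoter windows. Of the 10 genes 8 have promoter windows in the table used, 9 windows in all, and Alox5ap and Alox15 have none there. The STAT6 letters occurred in 1 of these windows, that of Ptges, 197 to 188 bases before the start, and in 5.85% of all promoters. Lta4h held 2 matches to the NF-kappaB letters. TATAAA (12.4% of all, on either strand) occurred on the opposite strand, 200 to 195 bases before an alternative start of Pla2g4a. No member window held TTCNNNGAA (7.02% of all) or TTANGTAA (2.06% of all). G and C made up 48.0% of the Ptgs1 window, 52.8% of the Alox5 window and 52.4% in the median promoter.

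Pla2g4a, which encodes the phospholipase that supplies arachidonic acid to both arms, was among the most abundant of the set. It stood at 139, 142 and 136 TPM in M0 replicates 1, 2 and 3 and at 156, 166 and 148 TPM in M2 replicates 1, 2 and 3. Every M2 library was above every M0 library, a lack of overlap shared by 55.9% of all genes tested, but the step was small: 139 ± 3.32 TPM in M0 against 156 ± 8.86 TPM in M2 (SD, n = 3 each; log2 fold change 0.17, SE 0.058, limma adjusted p = 0.0429). The call was lost when every gene with a value above 0 in any library was fitted (19655 genes, limma adjusted p = 0.0680). It was also lost when 1 library was left out, whichever of M0 replicates 1, 2 and 3 (0.0983, 0.0879 and 0.151) or M2 replicates 1 and 2 (0.0852 and 0.128) it was. The authors' deposited table gives Pla2g4a a log2 fold change of 0.21 with an adjusted p of 0.00455. The model is NM_008869 on mm10 (chromosome 1, 149829619 to 149961290, minus strand), whose start lies 139 kb from that of Ptgs2, on the opposite strand.

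Ptgs1, the constitutive cyclooxygenase, had the lowest adjusted p of the set. It was at 107, 111 and 109 TPM in the M0 libraries and at 199, 202 and 186 TPM in the M2 libraries. The groups were far apart compared with their spread (109 ± 2.35 TPM and 196 ± 8.52 TPM, SD, n = 3 each), and the log2 fold change was 0.84 (SE 0.054, limma adjusted p = 1.09e-05). Of all tested genes 4.46% changed by at least as much in size. Each value rested on 4107 to 9239 recovered reads, and the gene passed under all 13 alternatives. The model is NM_008969 (chromosome 2, 36230426 to 36252271, plus strand). A predicted opposite-strand gene, Gm43621, shares 148 exon bases with it. No source used here says whether counting used the strand, so reads of such pairs cannot be told apart.

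Ptgs2, the inducible cyclooxygenase, did not follow Ptgs1. It was at 10.7, 11.9 and 10.9 TPM in M0 and at 10.7, 10.4 and 9.56 TPM in M2, and the groups overlapped (log2 fold change -0.11, 95% interval -0.30 to 0.07, limma adjusted p = 0.279). Within each library, Ptgs1 was 10.0, 9.39 and 9.97 times as abundant as Ptgs2 in M0 and 18.5, 19.5 and 19.5 times in M2. The ratio did not overlap between groups, and an exact test of 3 libraries against 3 cannot give a p under 0.1. Ptgs2 passed under 0 of 13 alternatives (adjusted p from 0.174 to 0.610). It lies on chromosome 1, 150100031 to 150108234, plus strand (NM_011198).

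Hpgds and Ptges are the members below the cyclooxygenases, at the step that decides which prostaglandin is made. Hpgds was not called, and Ptges was not tested. Hpgds, the hematopoietic prostaglandin D synthase, was at 11.4, 11.7 and 10.8 TPM in M0 and at 12.5, 13.8 and 12.6 TPM in M2. Every M2 library was above every M0 library, yet the gene did not pass (log2 fold change 0.18, 95% interval 0.01 to 0.35, limma adjusted p = 0.0802). It passed with median-ratio scaling (adjusted p = 0.0270), on the authors' log2-scale values (0.0215), with limma-voom on recovered reads (0.0375) and without M2 replicate 3 (0.0389), and did not under the other 9 of 13 alternatives (0.0735 to 0.244). The authors' deposited table gives it an adjusted p of 0.0429.

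Ptges, the inducible microsomal prostaglandin E synthase, was barely expressed, at 0.610, 0.725 and 0.829 TPM in M0 and 0.319, 0.401 and 0.316 TPM in M2. Every M2 value was below every M0 value, but it had only 115 reads in all of M0 and 60 in all of M2, and the gene lay under the filter. With the filter lowered to 0.3 TPM it passed (limma adjusted p = 0.0178), as it did with no filter (0.00927). The log2 difference depended on the scale. It was -0.19 on the authors' log2-scale values, -0.35 on log2(TPM + 1) and -1.03 with limma-voom on recovered reads. The first and last of these were chosen after the data were seen. The authors' comparison gives Ptges a log2 fold change of -1.02 with an adjusted p of 0.0141. Ptges lies on chromosome 2 (30889471 to 30903297, minus strand, NM_022415), as does Ptgs1, and Hpgds on chromosome 6 (65117293 to 65144730, minus strand, NM_019455), as does Alox5.

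In the leukotriene arm, Alox5, which encodes the 5-lipoxygenase that commits arachidonic acid to leukotrienes, had the largest change of the 10 genes. It was at 5.04, 4.77 and 5.08 TPM in the M0 libraries and at 1.97, 2.03 and 1.92 TPM in the M2 libraries, with groups well apart. It rested on 615 reads in M0 and 266 in M2. The log2 fold change on log2(TPM + 1) was -1.002 (SE 0.088, limma adjusted p = 5.04e-05), a size reached by 2.47% of tested genes. That scale understates low genes: the value was -1.29 with a pseudocount of 0.1 and -1.32 with limma-voom, but -0.64 on the authors' log2-scale values, and the gene passed each time. The authors' deposited table gives -1.28. The 3 tested genes whose centred levels lay nearest to those of Alox5 over the 6 libraries, by Euclidean distance on log2(TPM + 1), were Inpp1 (0.0634), Triobp (0.0797) and Fam49a (0.0987). Alox5 lies on chromosome 6, 116410071 to 116461178, minus strand (NM_009662).

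Alox5ap encodes FLAP, the membrane protein that presents arachidonic acid to 5-lipoxygenase, and was far more abundant than Alox5. It was at 188, 179 and 185 TPM in M0 and at 146, 129 and 154 TPM in M2, and the groups did not overlap (log2 fold change -0.36, SE 0.069, limma adjusted p = 0.00313). Since Alox5 fell further, the ratio of Alox5ap to Alox5 in TPM went from 37.3, 37.6 and 36.4 in the M0 libraries to 74.2, 63.7 and 80.0 in the M2 libraries. Alox5ap passed under all 13 alternatives. The TPM table uses the model NM_001308462 (chromosome 5, 149265004 to 149288153, plus strand), and the comparison table NM_009663. An antisense gene, Gm19719, shares 189 exon bases with it.

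Lta4h, the hydrolase that makes leukotriene B4 and also acts as an aminopeptidase, changed little. It was at 31.5, 30.9 and 31.8 TPM in M0 and at 28.5, 27.4 and 25.4 TPM in M2 (log2 fold change -0.21, SE 0.064, limma adjusted p = 0.0286). The groups did not overlap, but the call ended without any 1 of the M0 libraries (adjusted p from 0.0760 to 0.101) and without M2 replicate 2 (0.0537). The authors' deposited table, which uses another model (NM_008517 in place of NM_001313897, chromosome 10, 93453396 to 93484896, plus strand), gives an adjusted p of 0.0957.

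Ltc4s, the synthase of leukotriene C4, had few reads: 36, 43 and 36 in the M0 libraries and 28, 17 and 37 in the M2 libraries. In TPM it was at 4.22, 5.24 and 5.01 in M0 and 3.33, 2.08 and 3.92 in M2, so that the groups were close without overlapping (log2 fold change -0.52, SE 0.17, limma adjusted p = 0.0318). The call did not hold with limma-voom on recovered reads (adjusted p = 0.0558), with no filter (0.103) or on the authors' log2-scale values (log2 fold change -0.08, adjusted p = 0.183). It also ended without M0 replicate 2 (0.0968), M0 replicate 3 (0.0933) or M2 replicate 2 (0.0662, log2 fold change -0.33). The authors' deposited table, on NM_008521, gives an adjusted p of 0.419. The model in the TPM table is NM_001313968 (chromosome 11, 50236461 to 50238532, minus strand), and an antisense gene, Gm26542, shares 268 exon bases with it.

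Alox15, the 12/15-lipoxygenase, stayed at a trace level. It was at 0.530, 0.660 and 0.692 TPM in M0 and 0.565, 0.443 and 0.479 TPM in M2, from 66 and 57 reads in all, and the groups overlapped. It lay under the filter, and passed neither with no filter (limma adjusted p = 0.238) nor with one at 0.3 TPM (0.333). Alox15 lies on chromosome 11, 70344147 to 70352031, minus strand (NM_009660).

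Summed per library, the prostaglandin arm (Ptgs1, Ptgs2, Ptges and Hpgds) was at 129, 136 and 131 TPM in M0 and at 222, 227 and 209 TPM in M2. The leukotriene arm (Alox5, Alox5ap, Ltc4s and Lta4h) was at 229, 219.9 and 226 TPM in M0 and at 180.3, 161 and 185 TPM in M2. The ratio of the prostaglandin to the leukotriene sum was thus under 1 in each M0 library (0.567, 0.618 and 0.579) and above 1 in each M2 library (1.23, 1.41 and 1.13). Each sum is mostly 1 gene. Ptgs1 made up 82.5 ± 0.363% of the prostaglandin sum in M0 and 89.3 ± 0.113% in M2, and Alox5ap 81.7 ± 0.411% and 81.6 ± 1.38% of the leukotriene sum (SD, n = 3 each). Without Ptgs1 the prostaglandin sum was 23.2 ± 0.993 TPM in M0 and 23.6 ± 1.07 TPM in M2, with overlapping groups, whereas without Alox5ap the leukotriene sum was still lower, 41.2 ± 0.610 TPM against 32.2 ± 1.42 TPM, with no overlap. These are sums of transcripts of different enzymes and say nothing of lipid products.

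**Figure D3:**
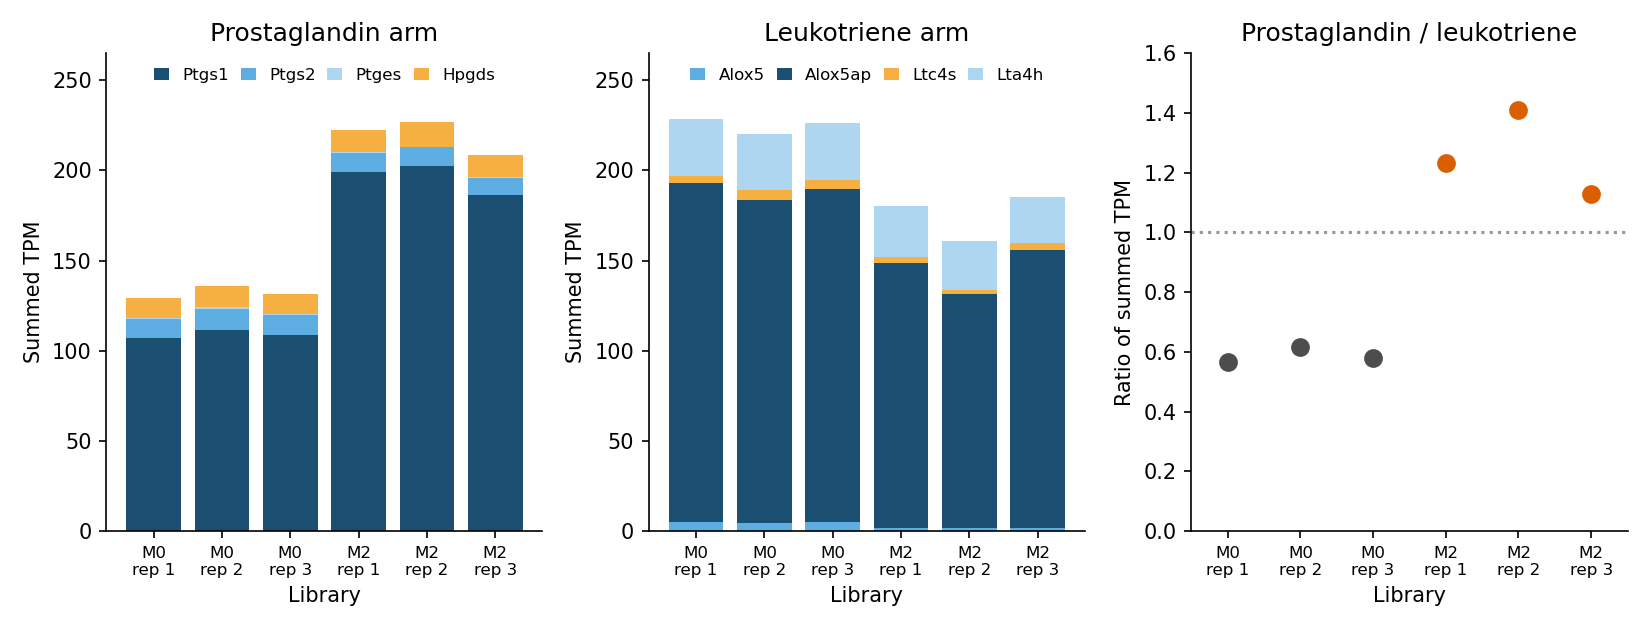
Stacked TPM of the 4 genes of each arm in each library (bars from 0; Ptges is too low to see) and, on the right, the ratio of the summed TPM of the prostaglandin to the leukotriene arm, with a dotted line at 1. The ratio lies between 0.567 and 0.618 in M0 and between 1.13 and 1.41 in M2, and Ptgs1 and Alox5ap make up most of their arms.

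The other genes of the pathway were a list of 62 genes in 6 groups, of which 34 passed the filter, 8 rose and 9 fell. Of all genes tested 20.1% were called higher and 23.7% lower, shares against which the counts of the list and of its groups are to be read. The 8 include Ptger2, which passed the filter through 1 group alone, and without it 7 of 33 rose. Among prostaglandin and thromboxane synthesis genes 4 of 6 tested rose and 1 fell (median log2 fold change 0.24). Tbxas1, thromboxane A synthase, which also uses the product of the cyclooxygenases, was at 3.37, 2.12 and 2.35 TPM in M0 and 10.4, 12.2 and 9.52 TPM in M2, a rise of the mean from 2.61 ± 0.664 to 10.7 ± 1.37 TPM (SD, n = 3 each; log2 fold change 1.71, SE 0.14, limma adjusted p = 3.95e-05). Hpgds was thus 3.39, 5.54 and 4.62 times as abundant as Tbxas1 in the M0 libraries and 1.20, 1.13 and 1.32 times in the M2 libraries. Ptges3, the cytosolic prostaglandin E synthase that is also the HSP90 cochaperone p23, rose from 91.4 ± 1.69 to 114 ± 7.06 TPM (SD, n = 3 each), and the membrane-associated Ptges2 rose 1.20-fold. Akr1b3, an aldose reductase that can act as a prostaglandin F synthase, rose 1.17-fold. Cbr1, a carbonyl reductase that acts on prostaglandins, fell 1.17-fold and was named after its values were seen, to complete the count. The limma adjusted p of Cbr1 was 0.0307, and the authors' comparison gives it an adjusted p of 0.263. Akr1b3 did not pass without M0 replicate 2 or 3 (adjusted p = 0.0778 and 0.0629), nor did Ptges2 without M0 replicate 1 or 3 or M2 replicate 1 or 2 (0.0673 to 0.113).

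Of the 9 genes of leukotriene synthesis, export and processing 5 were tested, of which 0 rose and 4 fell (median log2 fold change -0.40), where 23.7% of all genes tested were called lower. Dpep2, a membrane dipeptidase that turns leukotriene D4 into E4, was at 56.8, 53.0 and 53.5 TPM in M0 and 32.3, 29.3 and 33.8 TPM in M2, with groups far apart (log2 fold change -0.76, SE 0.068, limma adjusted p = 5.52e-05). Abcc1, which exports leukotriene C4, fell 1.33-fold. Cotl1, an actin-binding protein that binds 5-lipoxygenase, and Mgst3, a microsomal glutathione transferase, fell 1.13-fold and 1.14-fold. Mgst3 passed under 4 of 13 alternatives, and with 1 library left out only without M2 replicate 3. Cotl1 passed under 8. It did not pass with median-ratio scaling (limma adjusted p = 0.0821) or on the authors' log2-scale values (0.0776). Nor did it pass without M0 replicate 2 or 3 or M2 replicate 2 (0.0558 to 0.0992). The authors' comparison gives adjusted p-values of 7.66e-12 for Dpep2, 1.30e-04 for Abcc1, 0.0666 for Cotl1 and 0.229 for Mgst3. Mgst2, which also makes leukotriene C4, averaged 2.42 ± 0.789 TPM without and 1.33 ± 0.708 TPM with IL-4 and did not pass (limma adjusted p = 0.0678).

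Among genes of arachidonate release and reacylation 1 of 13 tested rose, 3 fell and 9 did not pass (median log2 fold change -0.05). Pla2g5, a secreted phospholipase A2, was at 12.1, 10.5 and 9.59 TPM in M0 and 17.3, 16.6 and 16.7 TPM in M2 (log2 fold change 0.62, SE 0.089, limma adjusted p = 7.17e-04). Mboat7, which returns arachidonic acid to phosphatidylinositol, fell from 27.9 ± 1.48 to 20.5 ± 0.492 TPM (SD, n = 3 each). The diacylglycerol lipase genes Dagla and Daglb fell 1.49-fold and 1.17-fold, though Dagla did not pass without M0 replicate 2 or 3 (adjusted p = 0.0810 and 0.0632). Daglb passed under 6 of 13 alternatives, and with 1 library left out only without M2 replicate 1. Acsl4, which activates arachidonic acid, averaged 105 ± 7.55 TPM without and 99.6 ± 11.3 TPM with IL-4, and Lpcat3, which returns fatty acids to lysophospholipids, 72.5 ± 1.76 and 72.4 ± 2.20 TPM. Neither passed.

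Of 4 tested genes of prostaglandin breakdown and transport 1 rose: Ptgr3, a prostaglandin reductase, by 1.34-fold (not without M0 replicate 3 or M2 replicate 1, adjusted p = 0.0695 and 0.0581). The main dehydrogenase gene of the route, Hpgd, had 0 reads in all of M0 and 2 in all of M2. Gpx4, the peroxidase that reduces lipid hydroperoxides, was the single tested gene of the other lipoxygenases and epoxide hydrolases, and did not pass (238 ± 5.28 TPM without IL-4, 223 ± 8.82 TPM with it). Among 5 tested receptors 2 rose and 1 fell. Ptger4, the EP4 receptor of prostaglandin E2, was at 14.1, 15.3 and 15.4 TPM in M0 and 8.90, 9.66 and 8.03 TPM in M2 (log2 fold change -0.69, SE 0.086, limma adjusted p = 3.21e-04). Ptgir, the prostacyclin receptor, rose 1.20-fold, but did not pass without M0 replicate 1 or M2 replicate 1 (adjusted p = 0.0592 and 0.0523). Ptger2, the EP2 receptor, was at 0.608, 0.754 and 0.722 TPM in M0 and 1.27, 1.27 and 1.21 TPM in M2. It passed the filter through its M2 libraries alone, so its call is no support; without it 1 of 4 receptors rose. Cysltr1, the receptor of cysteinyl leukotrienes, averaged 16.8 ± 0.818 TPM without and 18.3 ± 2.36 TPM with IL-4, with overlapping groups, and did not pass.

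**Figure D4:**
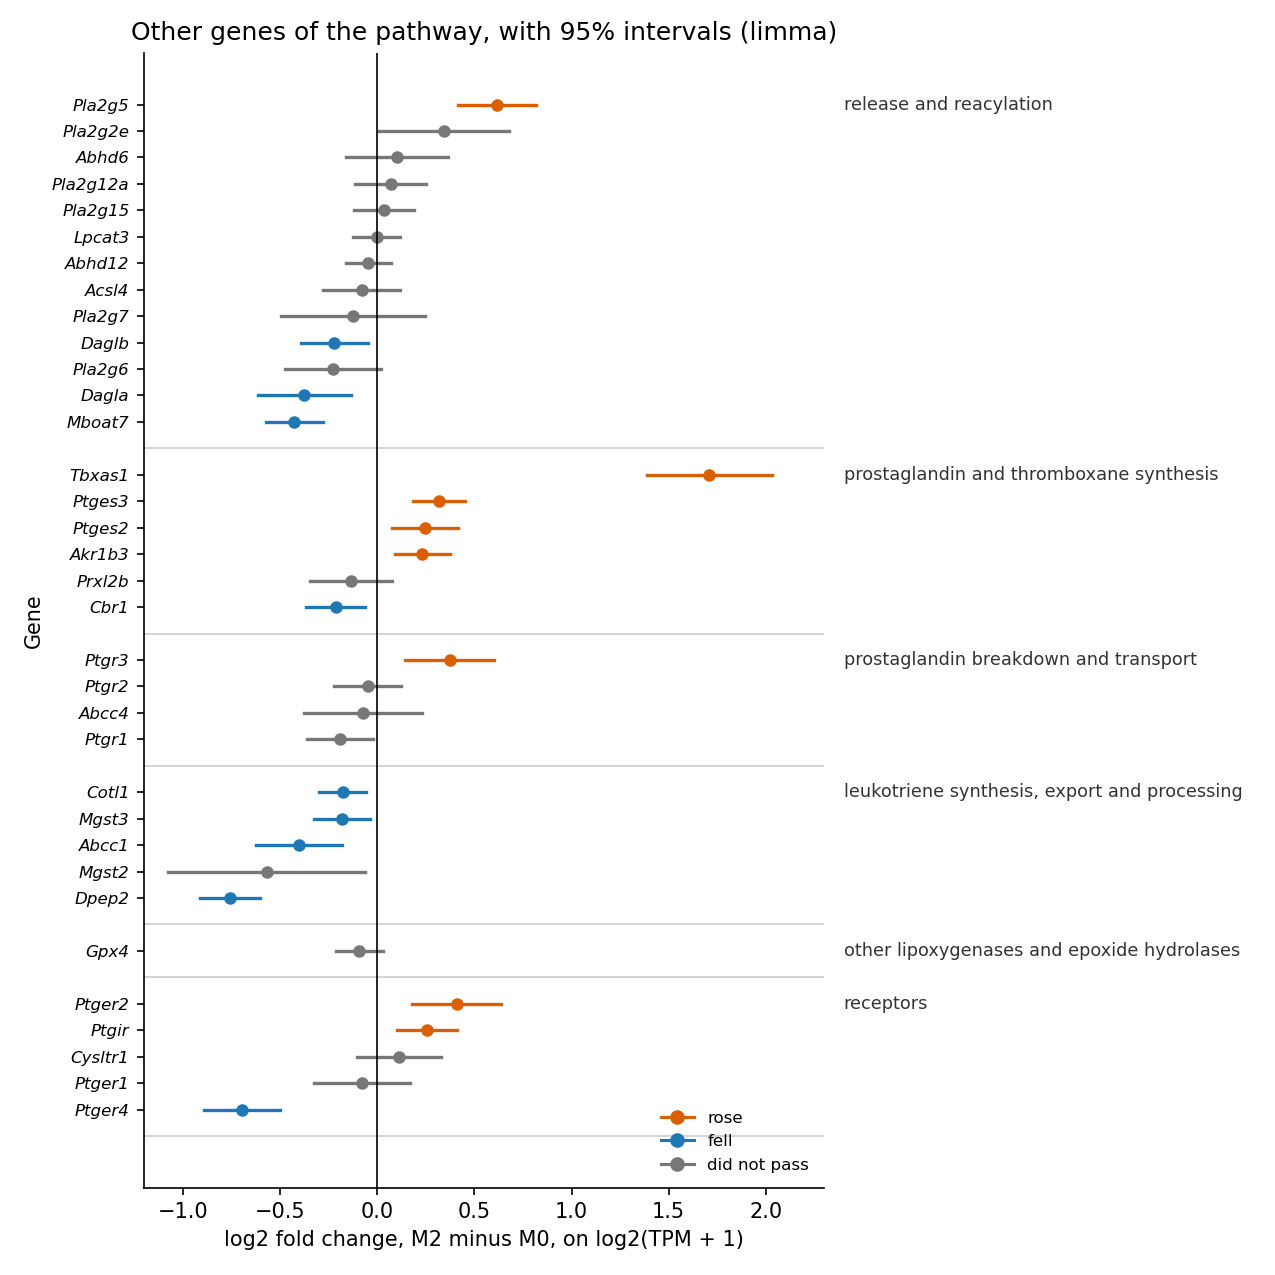
Log2 fold changes, M2 minus M0 on log2(TPM + 1), with 95% intervals, of the 34 tested genes of the rest of the pathway, by group. Tbxas1 at 1.71 stands apart to the right, and Dpep2 (-0.76) and Ptger4 (-0.69) are the lowest.

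The directions of the 10 genes did not turn under any alternative run, while the calls of several did. Pla2g4a and Ltc4s passed under 7 of 13, Lta4h under 9, Hpgds under 4 and Ptgs2 under 0. With 1 library left out in turn, 1 to 3 of the 10 genes rose and 2 to 4 fell, the 2 without M0 replicate 2, M0 replicate 3 or M2 replicate 2.

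**Figure D5:**
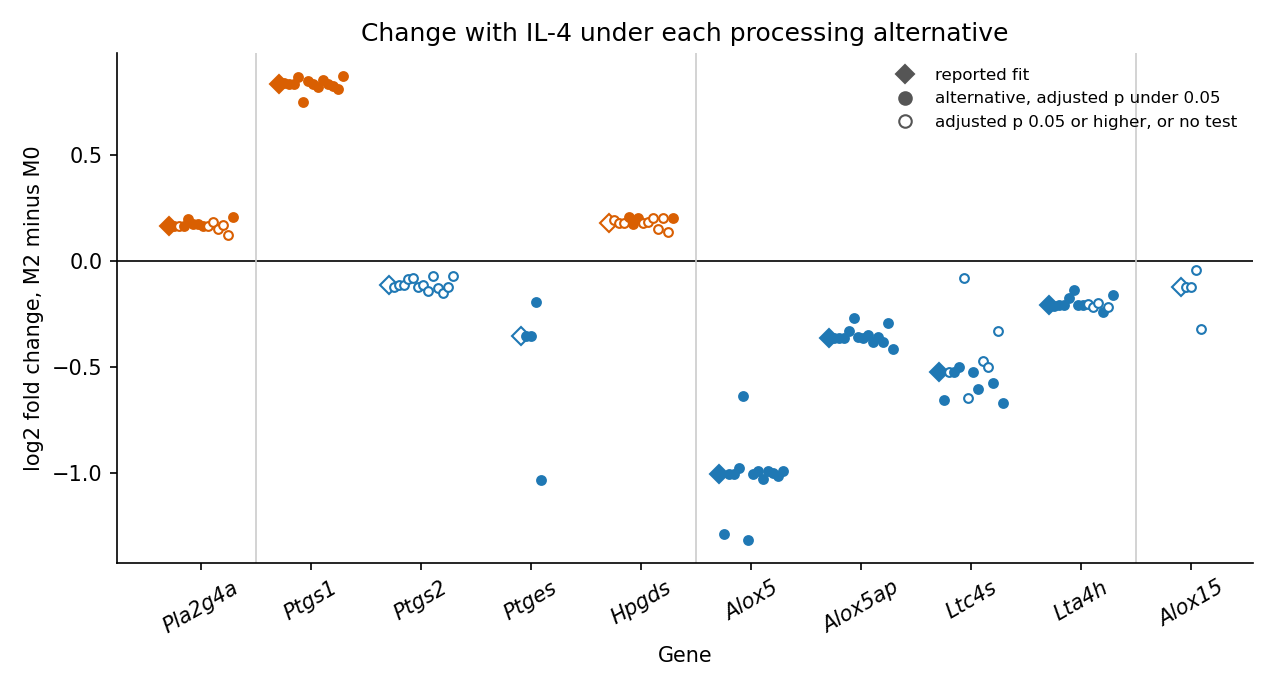
Log2 fold change, M2 minus M0, of each gene in the reported fit (diamond) and under each alternative (circles), filled where the adjusted p is under 0.05. Alternatives on recovered reads and on the authors' log2-scale values have scales of their own; Alox5 ranges from -1.32 to -0.64, and no gene crosses 0.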

How the data were processed

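Poly(A) RNA of 6 RAW264.7 libraries, 3 M0 and 3 M2, was sequenced from 200 ng of total RNA each. The genome build mm10 and the tools DESeq2, HOMER 4.11.1, STAR 2.7.5a and bcl2fastq are listed, with no roles, in the submitters' processing notes. No source used here gives the annotation, the use of strand or how multiply mapped reads were handled. Per the file headers, 1 deposited table holds the authors' TPM values, which sum to 550163 to 559556 per library. The other holds the authors' values per library, read as log2-scale values from their range, and the authors' comparison, a log2 fold change with raw and adjusted p-values. Its sign was checked on 7927 genes and is positive for a higher level in M2.

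The 10 genes and the lists were chosen with earlier results of these data known. Genes that reached 1 TPM in 3 or more libraries were fitted by group with limma 3.58.1 in R 4.3.3 on log2(TPM + 1), with a variance trend and Benjamini-Hochberg adjustment over all 11202 genes. Calls needed an adjusted p under 0.05. Folds are ratios of mean TPM. Of the pathway list, up to 4 called genes per group with the lowest adjusted p were to be named. Lists of markers of 9 cell classes were checked. Those of T cells, B cells, fibroblasts and epithelium had sums of at most 1.04 TPM per library.

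Multiplying TPM by model length gave multiples of a fixed step in each library, from which reads were recovered: 100.0% of the values precise enough for this were within 0.1 of a whole read, against 20.0% by chance. Library totals in the headers were 1.18 to 1.20 times as high. Within groups, Pearson's r between libraries was at least 0.991 across genes, and none was a duplicate (chi-square per degree of freedom of 2.27 to 21.3, the highest for M2 replicate 3). In a simulation of M2 against M0 (11171 genes tested), all (100.0%) of the genes raised 2-fold and 52.5% of those raised 1.3-fold were called, with 6.25% false calls. The simulation changed only 200 genes and gave every library the same spread. In the data 43.7% of genes were called and M2 replicate 3 stood apart, so these shares need not hold for them. Promoter windows are from RefSeq (GRCm38.p6), and overlapping genes from GENCODE M21. Alternatives were another pseudocount, filter, scaling, unit and test, a replicate block, and each library left out. Those of Ptges and Alox15 on recovered reads with a filter of 0.3 TPM, and on the authors' values with no filter, were chosen after seeing the data. Python 3.11.15 prepared tables and plots.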

Additional observations from a re-analysis of the deposited data

How the results depend on the processing

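With each library left out in turn, the number of the 10 genes that rose was 1 to 3 (2 as reported, 3 only without M2 replicate 3) and that fell 2 to 4 (4 as reported). For the other pathway genes it was 5 to 8 (8 as reported) and 4 to 12 (9 as reported, 12 without M2 replicate 3); the low counts came without M0 replicate 2 or 3 or M2 replicate 2 (5) for falls, and without M0 replicate 3 or M2 replicate 1 for rises. With no filter, where 19655 genes were tested, 1 of the 10 genes rose. Over all genes tested 4899 were called, and 3556 to 5694 with a library left out. Replicate numbers were not shown to pair the libraries, since deviations of same-numbered libraries correlated at -0.03, 0.21 and 0.03. Under a replicate block 4870 genes were called, 2 of the 10 genes rose and 4 fell, and of the other pathway genes 8 rose and 7 fell. Of 208 refits of the 16 named pathway genes, 33 lost the call and 0 changed direction. Ptger2, which passed the filter through its M2 libraries alone, is among the 16 and kept its call in all 13 of its refits. It is also among the other pathway genes counted as rising here, and its part in these counts is no support. The prostaglandin sum was 1.66 times as high in M2 (1.63 to 1.70 over alternatives) and the leukotriene sum 0.780 times (0.758 to 0.812). Depth limits Ltc4s, Ptges and Alox15, each with under 50 reads per library.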

Other observations

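Some pathway genes below the filter, and so not tested, had groups that did not overlap. They are given with no call here. The groups also did not overlap for 55.9% of all genes tested, and this share was not computed for genes below the filter. Ptgdr2, the receptor through which prostaglandin D2 attracts leukocytes, averaged 0.582 ± 0.116 TPM without and 1.01 ± 0.0902 TPM with IL-4 (SD, n = 3 each). Pla2g4c, a membrane-bound relative of Pla2g4a, was at 0.339, 0.450 and 0.358 TPM in M0 and 0.727, 0.965 and 0.597 TPM in M2. Aloxe3, an epidermis-type lipoxygenase, averaged 0.874 ± 0.204 TPM without and 0.564 ± 0.0617 TPM with IL-4, and the microsomal epoxide hydrolase gene Ephx1 0.668 ± 0.159 and 0.314 ± 0.0909 TPM (SD, n = 3 each). The authors' comparison gives adjusted p-values of 0.0385 for Ptgdr2, 0.0176 for Pla2g4c, 0.244 for Aloxe3 and 0.146 for Ephx1. Ltb4r1, the high-affinity receptor of leukotriene B4, overlapped between groups, from 0.320 to 1.03 TPM in M0 and from 0.622 to 0.870 TPM in M2. Ptgds, Dpep1, Alox12b and Cysltr2 had no read in any library.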
